A study of Rattus norvegicus with 9 samples.

Results

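Regulators of G-protein signalling (RGS proteins) are followed here as 8 genes, Rgs2, Rgs3, Rgs4, Rgs10, Rgs12, Rgs14, Rgs16 and Rgs19, in cultured primary rat Schwann cells of the sciatic nerve. Every probe set annotated to exactly 1 of these genes was taken, which gave 13 probe sets for the 8 genes, out of 20826 probe sets for 14213 genes in all. The genes were chosen with results of these same 9 arrays known, so their levels and differences are given as a description, with no test. Affymetrix arrays measured total RNA from 3 groups of 3 cultures, which the labels call independent biological replicates. The first group, NF1 RNAi + U0126, was transfected with oligonucleotides against Nf1 and treated with U0126 (spelled UO126 in the sample labels), an inhibitor of the kinase MEK. The second group, NF1 RNAi, received the Nf1 oligonucleotides without the inhibitor, and the third, Control RNAi, received scrambled oligonucleotides. All 9 cultures were transiently transfected, and RNA was taken 48 h later. The labels do not say whether cultures without the inhibitor received its solvent, and inhibitor-treated control cells were not analysed here.

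A receptor coupled to a heterotrimeric G protein loads GTP onto the G-alpha subunit, which separates from the G-beta-gamma pair, and both parts signal until G-alpha hydrolyses its GTP. RGS proteins bind the active G-alpha subunit through a conserved RGS domain and speed that hydrolysis, so they shorten the signal. Neurofibromin, the product of Nf1, does the analogous work for Ras, which feeds the Raf, MEK and ERK kinases, and the loss of Nf1 in Schwann cells is the founding lesion of neurofibromas.

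The stretches around the start sites of Rgs4, Rgs16 and Rgs3 are shown because these were the RGS genes whose group means spread the widest. They come from RefSeq on the rat build GRCr8 and run from 250 bases before to 50 bases after the annotated start, 5′ to 3′ along the gene's strand, with motif matches in capitals. Rgs4 lies at chr13:84475835-84476134 on the minus strand, Rgs16 at chr13:68437870-68438169 on the plus strand, and Rgs3 at chr5:81093801-81094100 on the plus strand.
Rgs4: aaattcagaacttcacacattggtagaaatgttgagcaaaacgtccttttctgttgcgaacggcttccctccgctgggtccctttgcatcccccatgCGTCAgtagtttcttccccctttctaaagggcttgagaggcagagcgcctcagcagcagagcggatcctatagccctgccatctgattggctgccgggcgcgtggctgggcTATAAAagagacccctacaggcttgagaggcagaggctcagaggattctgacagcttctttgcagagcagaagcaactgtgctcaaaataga
Rgs16: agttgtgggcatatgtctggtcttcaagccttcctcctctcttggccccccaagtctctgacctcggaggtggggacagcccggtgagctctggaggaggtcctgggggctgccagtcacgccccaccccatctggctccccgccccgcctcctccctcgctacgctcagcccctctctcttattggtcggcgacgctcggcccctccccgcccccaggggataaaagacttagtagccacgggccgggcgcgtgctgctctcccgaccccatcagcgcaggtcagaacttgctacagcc
Rgs3: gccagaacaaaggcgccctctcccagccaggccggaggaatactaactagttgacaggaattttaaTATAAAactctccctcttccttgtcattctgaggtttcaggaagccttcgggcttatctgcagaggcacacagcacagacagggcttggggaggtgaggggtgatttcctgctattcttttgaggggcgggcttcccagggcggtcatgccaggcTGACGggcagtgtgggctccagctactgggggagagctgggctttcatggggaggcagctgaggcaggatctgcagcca
The capitals mark the CRE core TGACG, which reads CGTCA on the opposite strand, and TATAAA. In Rgs4 the CRE core stood at -153 to -149 from the start, on the opposite strand, and TATAAA stood at -42 to -37. The Rgs3 stretch held TGACG at -29 to -25 and TATAAA at -184 to -179. The Rgs16 stretch held no match to any motif searched, and 66.3% of its bases were G or C, against 52.7% in Rgs4, 57.0% in Rgs3 and a median of 51.7% over 33469 rat promoters.

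The motifs were searched on both strands of all 33469 promoters of this length. TGACG occurred in 21.2% of them, TATAAA in 14.2%, the ETS core CCGGAA in 15.0%, the AP-1 site TGANTCA in 7.33% and the STAT site TTCNNNGAA in 8.87%. The EGR site GCGNGGGCG occurred in 4.98%, the full CRE TGACGTCA, which contains the core, in 1.83%, and the SRF CArG box in 1.64%. Of the other 5 RGS promoters, Rgs2 held a CRE core, Rgs12 an AP-1 site and Rgs19 an ETS core, while Rgs10 and Rgs14 held no match. A match here is a run of letters and not a measured binding site.

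Across the 9 arrays the median intensity lay between 94.6 and 96.7, and 58.0% to 58.5% of probe sets reached a log2 level of 6. Nf1, the targeted gene, had log2 levels of 5.44, 5.72 and 5.39 in NF1 RNAi + U0126 cells, 5.39, 5.41 and 5.44 in NF1 RNAi cells, and 6.65, 6.59 and 6.15 in Control RNAi cells. It fell by 1.05 ± 0.13 (log2 difference ± SE, n = 3 arrays per group) with NF1 RNAi against Control RNAi (limma adjusted p = 0.000695). Dusp6, an ERK phosphatase that is itself an ERK target gene, fell by 3.29 ± 0.40 with the inhibitor against NF1 RNAi (limma adjusted p = 0.00102), and the immediate early gene Egr1 fell by 3.56 ± 0.45 (limma adjusted p = 0.00119). Neither of the 2 reached a limma adjusted p under 0.05 with NF1 RNAi against Control RNAi. Dusp6 levels were 10.08, 9.79 and 9.30 in NF1 RNAi and 10.62, 9.22 and 8.88 in Control RNAi. Egr1 levels were 8.83, 9.18 and 8.73 in NF1 RNAi and 11.26, 9.83 and 9.05 in Control RNAi. Within each replicate number Egr1 was lower in NF1 RNAi. Control RNAi replicate 1 stood apart: over all probe sets its log2 values differed with an SD of 0.31 and 0.36 from the other Control RNAi arrays, which differed from each other with an SD of 0.15. Replicate 1 also stood apart in the other groups, with SDs of 0.23 and 0.26 in NF1 RNAi + U0126 and 0.20 and 0.24 in NF1 RNAi, so values are also given without these arrays. The beta-actin 3′ minus 5′ log2 value, a sign of RNA integrity, was 0.85 to 0.87 in NF1 RNAi + U0126, 0.78 to 0.85 in NF1 RNAi, and 0.90, 0.62 and 0.60 in Control RNAi replicates 1 to 3. The same value for GAPDH was -0.06 to -0.05 in NF1 RNAi + U0126 and -0.10 to -0.02 in NF1 RNAi. In Control RNAi replicates 1 to 3 it was 0.06, -0.06 and -0.11, so replicates 2 and 3 did not stand apart from the knockdown groups as they did for beta-actin.

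The cells carried Schwann cell markers: Sox10, S100b and 5 others of the 10 listed had probe sets, with summed intensities of 27960 to 28972 in NF1 RNAi + U0126, 30581 to 32248 in NF1 RNAi and 24889 to 31347 in Control RNAi. Fibroblast markers, 10 of 10 measured, summed to 20277 to 31945 in NF1 RNAi + U0126, 27751 to 35252 in NF1 RNAi and 31529 to 38870 in Control RNAi. Col1a1 and Postn gave most of each fibroblast sum, with mean intensities of 16145 and 12568 in Control RNAi. The fibroblast markers Dcn, Lum and Pdgfra stayed below a log2 level of 6 on every array. In this order of groups 5, 5 and 7 of the 10 fibroblast markers had a mean log2 level of 6 or more. Neuron markers, 10 of 10 measured, summed to 6816 to 7103, 4822 to 5471 and 8806 to 13319 in the same order of groups, so their sum was lowest in NF1 RNAi. Nefl, Nefm and Uchl1 gave most of each neuron sum, with mean intensities of 2958, 3384 and 3879 in Control RNAi. The neuron markers Rbfox3, Snap25, Syt1 and Stmn2 stayed below a log2 level of 6 on every array. In the same order of groups 5, 6 and 6 of the 10 neuron markers had a mean log2 level of 6 or more. Macrophage markers summed to between 402 and 558 on every array and endothelial and mural markers to between 549 and 921, with at most 3 genes of either list at a mean log2 level of 6 in any group. In bulk RNA, fewer cells of a type and less RNA per cell cannot be told apart.

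**Figure D1:**
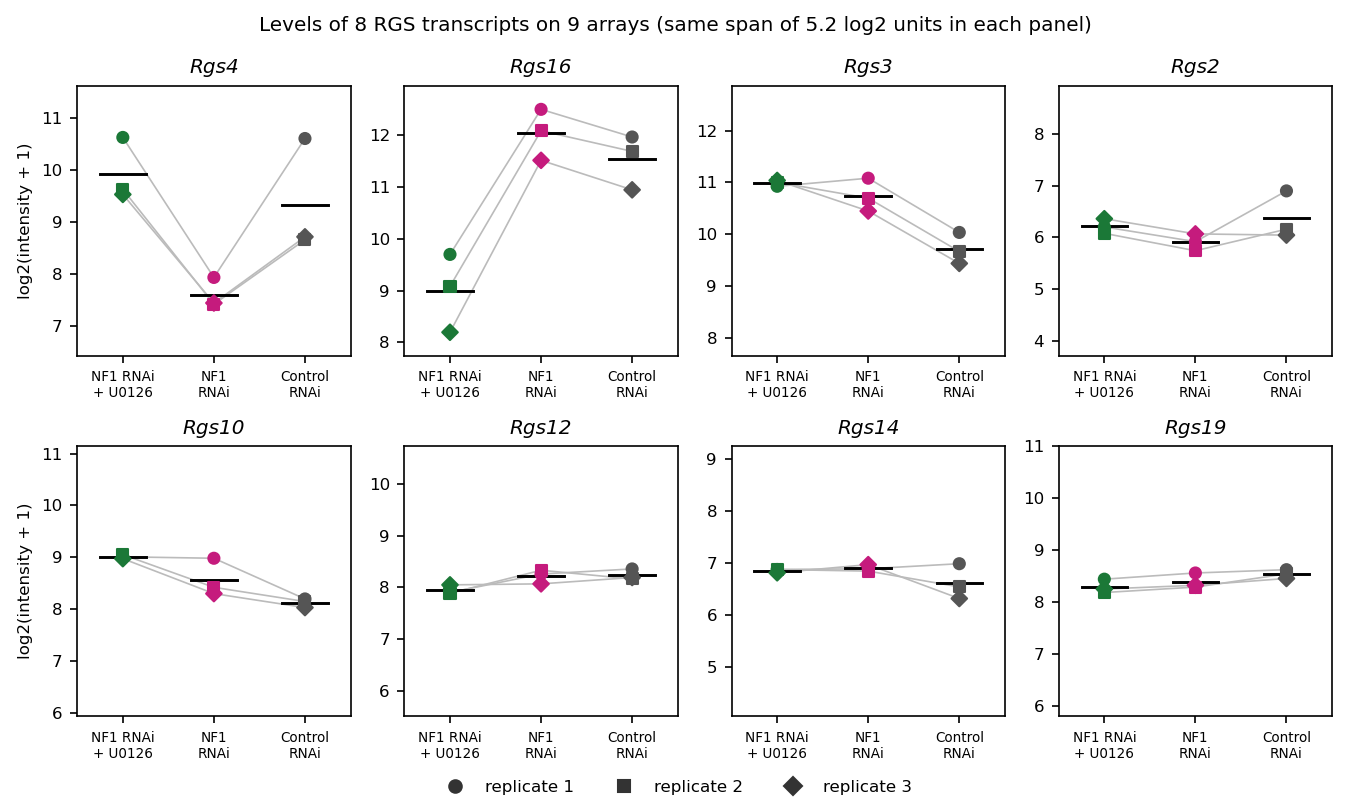
Log2(intensity + 1) of the brightest probe set of each of 8 RGS genes on each of 9 arrays, by group; bars are group means, grey lines join arrays of the same replicate number, and every panel spans the same 5.2 log2 units. Rgs4 was lowest in NF1 RNAi, Rgs16 was lowest in NF1 RNAi + U0126, and Rgs3 was lowest in Control RNAi.

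Rgs4 and Rgs16 are small members of the R4 subfamily, little more than an RGS domain with a short amphipathic tail at the N terminus, and both act on G-alpha subunits of the Gi and Gq classes. With the inhibitor their levels differed in opposite directions. Rgs4 had log2 levels of 10.63, 9.63 and 9.53 in NF1 RNAi + U0126 cells, 7.93, 7.41 and 7.44 in NF1 RNAi cells, and 10.61, 8.66 and 8.71 in Control RNAi cells. All 3 NF1 RNAi arrays lay below the 6 others, and the NF1 RNAi + U0126 and Control RNAi arrays overlapped. The difference was 2.34 ± 0.51 with the inhibitor against NF1 RNAi, a 5.05-fold higher level, and 2.70, 2.21 and 2.09 between arrays of the same number. Against Control RNAi, NF1 RNAi differed by -1.73 ± 0.51 and NF1 RNAi + U0126 by 0.60 ± 0.51. These 2 values rested partly on the apart array: without Control RNAi replicate 1 they were -1.09 ± 0.31 and 1.24 ± 0.31, and without all replicate 1 arrays -1.26 and 0.89. A second Rgs4 probe set ran the same way, with 9.73, 8.58 and 8.65 in NF1 RNAi + U0126, 7.08, 6.74 and 6.57 in NF1 RNAi, and 9.50, 7.69 and 7.85 in Control RNAi. Its differences were 2.19 with the inhibitor against NF1 RNAi, and -1.55 and 0.64 against Control RNAi for NF1 RNAi and NF1 RNAi + U0126. The summed endothelial and mural markers were lowest in NF1 RNAi too, at 549 to 569. They were 632 to 769 in NF1 RNAi + U0126 and 689 to 921 in Control RNAi. Of the 9 measured, 2 fell with NF1 RNAi against Control RNAi and 1 rose with the inhibitor against NF1 RNAi. Pdgfrb of that list had log2 levels of 6.35, 6.62 and 6.17 in NF1 RNAi. Its levels were 7.58, 7.38 and 7.38 in NF1 RNAi + U0126, and 8.05, 7.63 and 7.59 in Control RNAi. The summed neuron markers were also lowest in NF1 RNAi, but the genes of the neuron list did not share 1 order of groups. Of the 10, 1 rose and 4 fell with NF1 RNAi against Control RNAi, and 3 rose and 1 fell with the inhibitor against NF1 RNAi. Beside the counts of both lists 26.3% and 13.7% of all genes passed. The neurofilament gene Nefm fell by 2.03 ± 0.25 with NF1 RNAi against Control RNAi (limma adjusted p = 0.00052) and rose by 1.55 ± 0.25 with the inhibitor against NF1 RNAi (limma adjusted p = 0.00394). Nefl, another neurofilament gene, fell by 2.25 ± 0.35 and rose by 1.28 ± 0.35 (limma adjusted p = 0.00177 and 0.0402), the second call held in 3 of the 9 fits that left out 1 array. The tubulin gene Tubb3 fell by 2.30 ± 0.34 with NF1 RNAi (limma adjusted p = 0.00145) and differed by -0.83 ± 0.34 with the inhibitor against NF1 RNAi (limma adjusted p = 0.154). Uchl1, a neuronal ubiquitin hydrolase, fell by 0.43 ± 0.13 and again by 0.51 ± 0.13 in these comparisons (limma adjusted p = 0.0369 and 0.029, held in 4 and 5 of the 9 fits). Map2, a microtubule-associated protein of dendrites, differed by -0.01 ± 0.15 with NF1 RNAi (limma adjusted p = 0.978) and rose by 0.83 ± 0.15 with the inhibitor (limma adjusted p = 0.00607). The part of these neuron, endothelial and mural markers in the Rgs4 result was not tested.

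Rgs16, measured by 1 probe set, had log2 levels of 9.70, 9.08 and 8.20 in NF1 RNAi + U0126 cells, 12.50, 12.08 and 11.51 in NF1 RNAi cells, and 11.96, 11.69 and 10.94 in Control RNAi cells. The NF1 RNAi + U0126 arrays lay below all 6 others, while those of NF1 RNAi and Control RNAi overlapped. On the linear scale the mean intensity was 555 ± 269 in NF1 RNAi + U0126, 4346 ± 1428 in NF1 RNAi and 3085 ± 1027 in Control RNAi (SD, n = 3 each). The inhibitor-treated cells were 8.21-fold lower than NF1 RNAi cells, a log2 difference of -3.04 ± 0.41, and 5.81-fold lower than Control RNAi cells, a difference of -2.54 ± 0.41. NF1 RNAi differed from Control RNAi by 0.50 ± 0.41. Arrays of the same number ranked alike in each group, so differences between arrays of the same number varied less than the levels did. They were -2.80, -3.00 and -3.32 with the inhibitor against NF1 RNAi, and 0.53, 0.40 and 0.57 with NF1 RNAi against Control RNAi. With the replicate number as a block the last comparison had an SE of 0.10 and passed the threshold of the fit over all genes, which it did not without the block.

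Rgs3 and Rgs2 are the other R4 members of the set. Rgs3 has long splice forms beside the RGS domain and also binds G-beta-gamma, and Rgs2 acts mainly on G-alpha subunits of the Gq class. In its brightest of 3 probe sets, Rgs3 had log2 levels of 10.93, 11.00 and 11.04 in NF1 RNAi + U0126, 11.08, 10.70 and 10.45 in NF1 RNAi, and 10.04, 9.67 and 9.44 in Control RNAi. Both knockdown groups lay above Control RNAi with no overlap, and they overlapped each other. NF1 RNAi was 2.04-fold higher than Control RNAi, a log2 difference of 1.03 ± 0.18 that was 1.05, 1.03 and 1.01 between arrays of the same number. NF1 RNAi + U0126 was 2.42-fold higher than Control RNAi, a difference of 1.27 ± 0.18, and differed from NF1 RNAi by 0.25 ± 0.18. The last value rested on single NF1 RNAi arrays: it was 0.42 without NF1 RNAi replicate 1, 0.10 without NF1 RNAi replicate 3, and 0.45 ± 0.11 without all replicate 1 arrays, where it passed the threshold of the fit over all genes.

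The other Rgs3 probe sets gave the same order of groups. One had 7.51, 7.39 and 6.95 in NF1 RNAi + U0126, 7.11, 6.54 and 6.51 in NF1 RNAi, and 5.26, 5.61 and 5.07 in Control RNAi. The dimmest had 7.52, 7.11 and 6.95 in NF1 RNAi + U0126, 6.85, 6.32 and 6.32 in NF1 RNAi, and 5.68, 5.42 and 5.33 in Control RNAi. In both, the inhibitor-treated cells differed more from NF1 RNAi than in the brightest probe set, by 0.56 and 0.70, and NF1 RNAi + U0126 differed from Control RNAi by 1.97 and 1.72. Which Rgs3 splice forms each probe set reads was not analysed here.

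Rgs2 had log2 levels of 6.20, 6.08 and 6.36 in NF1 RNAi + U0126, 5.92, 5.74 and 6.07 in NF1 RNAi, and 6.90, 6.16 and 6.05 in Control RNAi. The NF1 RNAi + U0126 arrays lay just above those of NF1 RNAi, by 0.30 ± 0.20 on average. Control RNAi overlapped both, and the differences against it were -0.46 ± 0.20 for NF1 RNAi and -0.15 ± 0.20 for NF1 RNAi + U0126. Without Control RNAi replicate 1 they were -0.19 and 0.11, so the sign of the second turned with that array. The second Rgs2 probe set, which reached a log2 level of 6 on 1 array, differed by -0.49, 0.32 and -0.17 in the comparisons of NF1 RNAi with Control RNAi, NF1 RNAi + U0126 with NF1 RNAi, and NF1 RNAi + U0126 with Control RNAi.

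**Figure D2:**
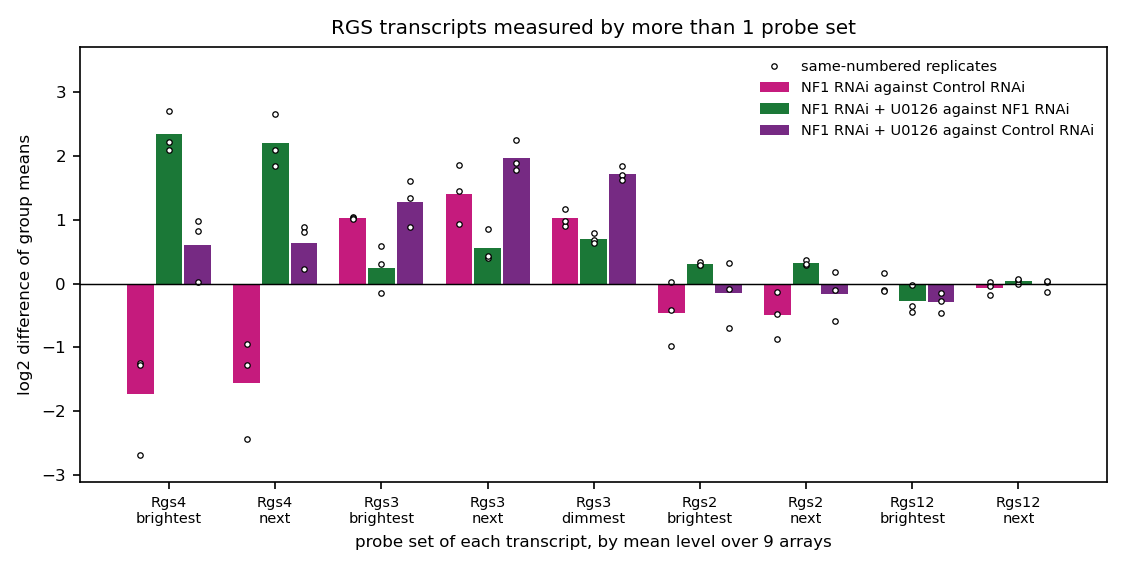
Log2 differences of group means (bars) for the 9 probe sets of the 4 RGS genes with more than 1, with the differences between same-numbered replicates as open points. The probe sets of Rgs4 and of Rgs3 share their signs in all 3 comparisons, while the dimmer Rgs12 probe set lies near 0 in each.

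Rgs10, Rgs12 and Rgs14 form the R12 subfamily. Rgs10 is a small protein with little besides the RGS domain, whereas Rgs12 and Rgs14 are large scaffolds that also carry Ras-binding domains and a GoLoco motif that holds inactive Gi-class subunits. Rgs10 had log2 levels of 9.01, 9.05 and 8.97 in NF1 RNAi + U0126, 8.98, 8.42 and 8.30 in NF1 RNAi, and 8.20, 8.15 and 8.03 in Control RNAi. The levels stepped down from group to group in that order, with Control RNAi below both knockdown groups and replicate 1 of NF1 RNAi as high as the inhibitor-treated arrays. The differences were 0.89 ± 0.15 for NF1 RNAi + U0126 against Control RNAi, 0.44 ± 0.15 for NF1 RNAi against Control RNAi and 0.44 ± 0.15 for NF1 RNAi + U0126 against NF1 RNAi. With the replicate block the last 2 also passed the threshold of the fit over all genes, with an SE of 0.13. They also moved with 1 array: without NF1 RNAi replicate 1 they were 0.24 and 0.65, of which the second passed, without NF1 RNAi replicate 3 they were 0.58 and 0.31, of which the first passed, and without all replicate 1 arrays they were 0.27 and 0.65, which both passed. Between arrays of the same number NF1 RNAi + U0126 exceeded Control RNAi by 0.81, 0.90 and 0.94.

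Rgs12 had log2 levels of 7.90, 7.89 and 8.05 in NF1 RNAi + U0126, 8.26, 8.33 and 8.07 in NF1 RNAi, and 8.36, 8.16 and 8.19 in Control RNAi. The inhibitor-treated arrays lay below the 6 others, with a difference of -0.02 between the replicate 3 arrays of NF1 RNAi + U0126 and NF1 RNAi, and the other groups overlapped. The differences were -0.27 ± 0.09 against NF1 RNAi and -0.29 ± 0.09 against Control RNAi. A dimmer Rgs12 probe set did not share them, with 0.04 against NF1 RNAi and -0.02 against Control RNAi, and the mean of both probe sets gave -0.12 and -0.16. Rgs14 had 6.88, 6.87 and 6.81 in NF1 RNAi + U0126, 6.89, 6.84 and 6.97 in NF1 RNAi, and 6.99, 6.54 and 6.32 in Control RNAi. Its groups overlapped in all 3 comparisons, and Control RNAi replicate 1 was the highest of the 9 arrays. Without that array, NF1 RNAi + U0126 and NF1 RNAi differed from Control RNAi by 0.43 and 0.47, and both passed the threshold of the fit over all genes. With it the differences were 0.24 ± 0.14 and 0.29 ± 0.14, and neither passed.

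Rgs19, also called GAIP, is the RZ subfamily member of the set, acts on Gi and Gz subunits and binds the trafficking adaptor GIPC. It had log2 levels of 8.44, 8.18 and 8.25 in NF1 RNAi + U0126, 8.56, 8.29 and 8.32 in NF1 RNAi, and 8.62, 8.54 and 8.45 in Control RNAi. Within each replicate number the order was the same, lowest in NF1 RNAi + U0126 and highest in Control RNAi. Its group means spread the least of the 8 genes, with differences of -0.25 ± 0.10 for NF1 RNAi + U0126 against Control RNAi, -0.15 ± 0.10 for NF1 RNAi against Control RNAi and -0.10 ± 0.10 for NF1 RNAi + U0126 against NF1 RNAi. The first of these passed the threshold of the fit over all genes with the replicate block, where its SE was 0.06, and not without it.

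**Figure D3:**
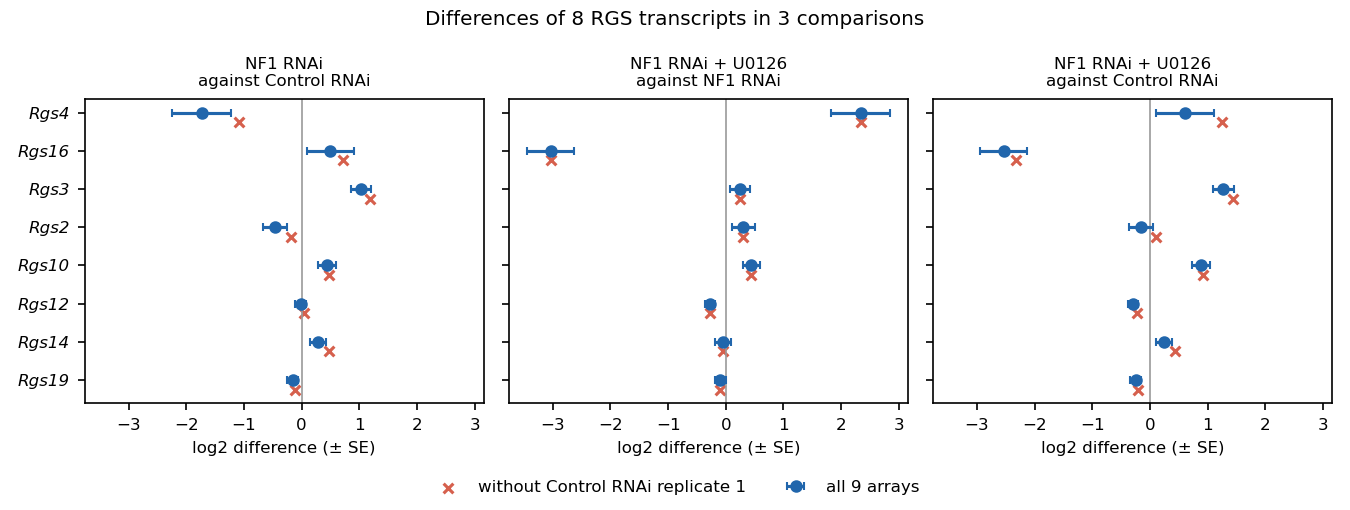
Log2 differences (points) with their SE (bars) of 8 RGS genes in 3 comparisons, and the same differences without Control RNAi replicate 1 (crosses). Rgs4 at 2.34 and Rgs16 at -3.04 lie at opposite ends in NF1 RNAi + U0126 against NF1 RNAi, and the crosses depart most from the points for Rgs4 against Control RNAi.

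Counted by the threshold of the fit over all genes (limma, Benjamini-Hochberg adjusted p under 0.05), 2 of the 8 RGS genes passed in NF1 RNAi against Control RNAi: Rgs3 was higher and Rgs4 lower. Of all 14213 genes 26.3% passed there, 13.0% higher and 13.3% lower. In NF1 RNAi + U0126 against NF1 RNAi, Rgs4 passed as higher and Rgs16 as lower, beside 13.7% of all genes, 6.71% higher and 7.02% lower. In NF1 RNAi + U0126 against Control RNAi, Rgs3 and Rgs10 passed as higher and Rgs12 and Rgs16 as lower, beside 35.5% of all genes, 17.9% higher and 17.6% lower. The groups did not overlap for 3, 4 and 5 of the 8 genes in these comparisons, beside 41.2%, 33.9% and 47.2% of all genes. The median log2 difference of the 8 genes was 0.13, 0.10 and 0.04, against 0.02, 0.02 and 0.04 over all genes. Since the genes were chosen from these contrasts, these counts describe the set and nothing is read from them.

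With the replicate block 4, 3 and 5 of the 8 genes passed in the comparisons of NF1 RNAi with Control RNAi, NF1 RNAi + U0126 with NF1 RNAi, and NF1 RNAi + U0126 with Control RNAi, beside 32.0%, 19.6% and 40.8% of all genes. Without Control RNAi replicate 1 the counts were 3, 3 and 5, beside 25.4%, 18.2% and 35.8% of all genes. The genes were chosen from these contrasts, so calls kept or lost only describe how far they rested on single arrays. Rgs3 and Rgs16 kept their calls with any 1 of the 9 arrays left out, as did Rgs10 against Control RNAi. Rgs4 lost its call in NF1 RNAi against Control RNAi without any 1 of the NF1 RNAi arrays or without NF1 RNAi + U0126 replicate 2, where its difference was -1.90, -1.64, -1.65 and -1.73. It lost its call in NF1 RNAi + U0126 against NF1 RNAi without NF1 RNAi replicate 2 (2.25) or replicate 3 (2.26). Rgs12 lost its call against Control RNAi without Control RNAi replicate 1 (-0.23) or replicate 3 (-0.31), or without NF1 RNAi + U0126 replicate 1 (-0.27) or replicate 2 (-0.26). It gained a call with the inhibitor against NF1 RNAi without Control RNAi replicate 1 (-0.27) or NF1 RNAi replicate 3 (-0.35). Rgs19 gained a call with the inhibitor against Control RNAi without NF1 RNAi replicate 1 (-0.25) or NF1 RNAi + U0126 replicate 1 (-0.32). Without Control RNAi replicate 1, Rgs14 gained calls against Control RNAi for NF1 RNAi (0.47) and NF1 RNAi + U0126 (0.43). Rgs4 gained a call there for NF1 RNAi + U0126 against Control RNAi (1.24). Without all replicate 1 arrays these differences of Rgs14 (0.48 and 0.42) and Rgs4 (0.89) passed as well.

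The rest of the pathway was read from 7 lists with 110 genes, of which 95 had a probe set of their own and 56 reached a log2 level of 6 on at least 3 arrays. In NF1 RNAi against Control RNAi, 13 of the 95 rose and 13 fell, 27.4% beside 26.3% of all genes. In NF1 RNAi + U0126 against NF1 RNAi, 3 rose and 12 fell, 15.8% beside 13.7% of all genes, and with the inhibitor against Control RNAi 10 rose and 14 fell, 25.3% beside 35.5%. The most marked differences were among the receptors. These lists were chosen with earlier results of these data known, so the shares describe the listed genes and are not a test of the pathway.

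Other RGS genes were mostly dim: 9 of 13 were measured and 2, Rgs9 and Rgs17, reached a log2 level of 6 on at least 3 arrays. Rgs8, an R4 member best known from brain, had 5.24, 5.25 and 5.01 in NF1 RNAi + U0126, 5.84, 5.73 and 5.68 in NF1 RNAi, and 5.28, 5.28 and 5.22 in Control RNAi. It rose by 0.49 ± 0.08 with NF1 RNAi against Control RNAi (limma adjusted p = 0.00227) and fell by 0.58 ± 0.08 with the inhibitor against NF1 RNAi (limma adjusted p = 0.00176). It was the 1 other RGS gene to pass in either comparison, and Rgs22 was the 1 to pass with the inhibitor against Control RNAi, where it rose by 0.30 ± 0.07 (limma adjusted p = 0.0103). The shares of all genes that passed in these 3 comparisons were 26.3%, 13.7% and 35.5%. The Rgs8 levels follow the order of groups seen for Rgs16, highest in NF1 RNAi, on a probe set that stayed below a log2 level of 6 on every array.

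Among the subunits that RGS proteins act on, 14 of 16 listed G-alpha genes were measured. With NF1 RNAi against Control RNAi 2 rose and 1 fell, with the inhibitor against NF1 RNAi 2 fell, and with the inhibitor against Control RNAi 1 rose and 1 fell. Of all genes 26.3%, 13.7% and 35.5% passed in these comparisons. Gna12 had 11.05, 11.06 and 11.08 in NF1 RNAi + U0126, 11.32, 11.40 and 11.25 in NF1 RNAi, and 11.92, 11.81 and 11.71 in Control RNAi. It fell in all 3 comparisons, by 0.49 ± 0.07 with NF1 RNAi against Control RNAi (limma adjusted p = 0.00112), by 0.26 ± 0.07 with the inhibitor against NF1 RNAi (limma adjusted p = 0.0353) and by 0.75 ± 0.07 with the inhibitor against Control RNAi (limma adjusted p = 6.37e-05). The middle call held in 3 of the 9 fits that left out 1 array, with differences from -0.30 to -0.22. Gnas, the stimulatory subunit for adenylyl cyclase, rose by 0.32 ± 0.07 with NF1 RNAi and by 0.37 ± 0.07 with NF1 RNAi + U0126, both against Control RNAi (limma adjusted p = 0.00827 and 0.0029). Gnai1, a Gi subunit, rose by 0.50 ± 0.14 with NF1 RNAi against Control RNAi (limma adjusted p = 0.026), a call lost without any 1 of the NF1 RNAi arrays and a difference of 0.32 without Control RNAi replicate 1, and fell by 0.50 ± 0.14 with the inhibitor against NF1 RNAi (limma adjusted p = 0.0431). The second Gnai1 call held in 3 of the 9 fits that left out 1 array and was lost with the replicate block (adjusted p = 0.0527).

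Of 17 listed G-beta and G-gamma genes 16 were measured. With NF1 RNAi against Control RNAi 1 rose and 3 fell, beside 26.3% of all genes that passed, with the inhibitor against NF1 RNAi 1 rose and 1 fell, beside 13.7%, and with the inhibitor against Control RNAi 1 rose and 5 fell, beside 35.5%. Gng2, a common G-gamma subunit, had 8.80, 8.98 and 9.04 in NF1 RNAi + U0126, 10.40, 10.31 and 10.32 in NF1 RNAi, and 10.44, 10.60 and 10.52 in Control RNAi. The inhibitor-treated arrays stood well apart from the rest, with a fall of 1.41 ± 0.08 against NF1 RNAi (limma adjusted p = 2.47e-05) and of 1.58 ± 0.08 against Control RNAi (limma adjusted p = 3.17e-06). Gnb4 and Gng8 were instead low in both knockdown groups. Gnb4 fell by 0.97 ± 0.11 with NF1 RNAi and by 0.89 ± 0.11 with NF1 RNAi + U0126 against Control RNAi (limma adjusted p = 0.000303 and 0.00025), and Gng8 fell by 0.89 ± 0.08 and 0.75 ± 0.08 (limma adjusted p = 0.00014 and 0.000161).

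Of the effector enzymes, 11 of 13 adenylyl cyclases and phospholipases C beta were measured, 2 rose with NF1 RNAi against Control RNAi, 1 fell with the inhibitor against NF1 RNAi, and 1 rose with the inhibitor against Control RNAi. Beside these counts 26.3%, 13.7% and 35.5% of all genes passed. Plcb1, the phospholipase that Gq activates, had 5.86, 5.47 and 5.65 in NF1 RNAi + U0126, 6.96, 6.53 and 6.59 in NF1 RNAi, and 6.01, 5.83 and 5.74 in Control RNAi. It rose by 0.83 ± 0.14 with NF1 RNAi against Control RNAi (limma adjusted p = 0.0024) and fell by 1.03 ± 0.14 with the inhibitor against NF1 RNAi (limma adjusted p = 0.00157). Adcy5, an adenylyl cyclase that Gi inhibits, rose by 0.70 ± 0.08 with NF1 RNAi and by 0.46 ± 0.08 with NF1 RNAi + U0126 against Control RNAi (limma adjusted p = 0.00034 and 0.00178), but its other probe set differed by -0.01 and -0.13. Among GoLoco proteins, Ric8 chaperones and RGS partners, 7 of 9 measured, 2 fell with NF1 RNAi against Control RNAi and 1 fell in each comparison with the inhibitor. The shares of all genes that passed are those given for the effector enzymes. Gpsm2, which binds inactive Gi subunits at the cell cortex during spindle orientation, fell by 0.73 ± 0.17 with NF1 RNAi against Control RNAi (limma adjusted p = 0.0114). It differed by 0.50 ± 0.17 with the inhibitor against NF1 RNAi (limma adjusted p = 0.0838), a difference that passed with the replicate block (adjusted p = 0.0141). Gpsm3 fell by 0.51 ± 0.08 and 0.45 ± 0.08 with the inhibitor against NF1 RNAi and Control RNAi (limma adjusted p = 0.00475 and 0.00314).

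Receptor kinases and arrestins, which switch receptors off upstream of the RGS step, were all 10 measured. With NF1 RNAi against Control RNAi 1 rose and 2 fell, none of the 10 passed in limma with the inhibitor against NF1 RNAi (3 had an unadjusted p under 0.05), and 2 rose and 1 fell with the inhibitor against Control RNAi. Of all genes 26.3%, 13.7% and 35.5% passed in these comparisons. Grk4 rose by 0.65 ± 0.12 with NF1 RNAi against Control RNAi (limma adjusted p = 0.00374), while its other probe set differed by 0.11, and Grk5 fell by 0.71 ± 0.12 (limma adjusted p = 0.003). Grk5 differed by 0.37 ± 0.12 with the inhibitor against NF1 RNAi (limma adjusted p = 0.0774), a difference that passed with the replicate block (adjusted p = 0.0281).

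Of 32 listed G-protein-coupled receptors of Schwann cells 28 were measured, and 16 of these reached a log2 level of 6 on at least 3 arrays. With NF1 RNAi against Control RNAi 6 rose and 5 fell, with the inhibitor against NF1 RNAi 2 rose and 6 fell, and with the inhibitor against Control RNAi 4 rose and 6 fell. The shares of all genes that passed there were 26.3%, 13.7% and 35.5%. Htr2b, a serotonin receptor that couples to Gq, had 5.29, 4.61 and 5.05 in NF1 RNAi + U0126, 8.11, 7.18 and 7.02 in NF1 RNAi, and 4.84, 4.03 and 3.67 in Control RNAi. It was highest on the NF1 RNAi arrays, with a rise of 3.26 ± 0.35 against Control RNAi (limma adjusted p = 0.000301) and a fall of 2.46 ± 0.35 with the inhibitor against NF1 RNAi (limma adjusted p = 0.00244). Lpar1, a receptor for lysophosphatidic acid that couples to Gi, Gq and G12 and is known in Schwann cells for survival and shape, had 9.23, 9.47 and 9.61 in NF1 RNAi + U0126, 11.16, 10.62 and 10.63 in NF1 RNAi, and 9.25, 9.33 and 9.38 in Control RNAi. It rose by 1.48 ± 0.15 with NF1 RNAi against Control RNAi (limma adjusted p = 0.000227) and fell by 1.36 ± 0.15 with the inhibitor against NF1 RNAi (limma adjusted p = 0.00067), and its other probe set differed by 1.39 and -1.48.

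Other receptors followed other orders. S1pr3, a sphingosine 1-phosphate receptor, was low in both knockdown groups, with 10.22, 9.60 and 9.38 in NF1 RNAi + U0126, 9.34, 9.99 and 9.98 in NF1 RNAi, and 11.96, 11.76 and 11.83 in Control RNAi. It fell by 2.08 ± 0.23 with NF1 RNAi and by 2.12 ± 0.23 with NF1 RNAi + U0126 against Control RNAi (limma adjusted p = 0.000331 and 0.000157). Adora2b, an adenosine receptor that couples to Gs, was high in the inhibitor-treated cells, with 7.46, 7.53 and 7.53 there, 5.78, 5.25 and 5.52 in NF1 RNAi, and 5.34, 5.36 and 5.43 in Control RNAi. It rose by 1.99 ± 0.11 against NF1 RNAi (limma adjusted p = 3.54e-05) and by 2.13 ± 0.11 against Control RNAi (limma adjusted p = 4.85e-06).

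**Figure D4:**
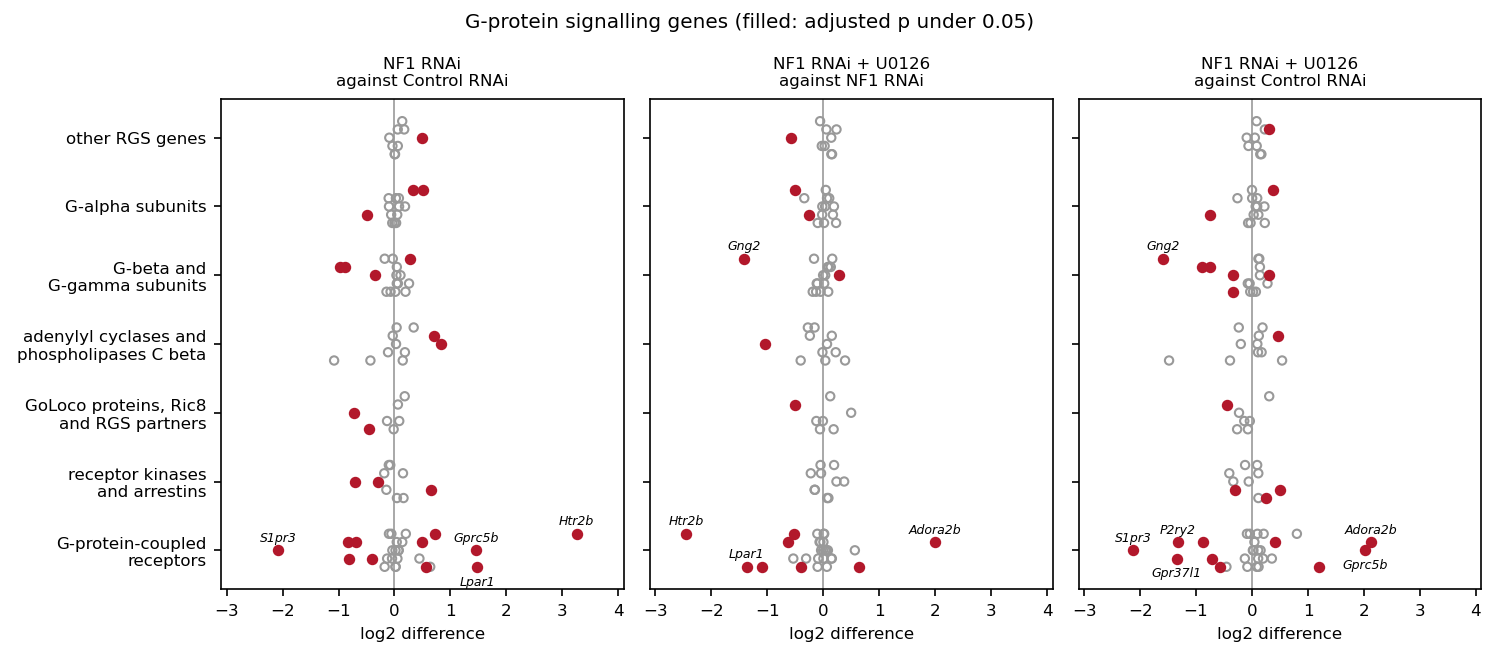
Log2 differences of the 95 measured genes of 7 G-protein signalling lists in 3 comparisons; filled points passed a limma adjusted p under 0.05, and names are given for passing genes beyond 1.3. Htr2b and Lpar1 lie right of 0 in NF1 RNAi against Control RNAi and left of 0 with the inhibitor against NF1 RNAi.

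The genes whose levels ran closest to Rgs16, Rgs4 and Rgs3 were ranked by the root mean square difference of log2 levels over the 9 arrays, each gene centred on its own mean, among the 10159 genes at a log2 level of 6 on at least 3 arrays, of which 10092 remained once provisional symbols and the RGS gene itself were left out. These distances describe 9 arrays and carry no test. For Rgs16 the 5 closest were Celf4 (an RNA-binding protein, 0.41), Gbp4 (a guanylate-binding protein, 0.46), Adamtsl1 (0.48), Ccnd1 (cyclin D1, 0.53) and Dusp6 (0.54). Dusp6 averaged 6.43 ± 0.22 in NF1 RNAi + U0126, 9.72 ± 0.39 in NF1 RNAi and 9.57 ± 0.92 in Control RNAi, and Ccnd1 averaged 9.98 ± 0.08, 12.41 ± 0.29 and 11.65 ± 0.52 in the same groups (SD, n = 3 each). Both were lowest in the inhibitor-treated cells, as Rgs16 was at 8.99 ± 0.75, 12.03 ± 0.49 and 11.53 ± 0.53.

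For Rgs4 the closest were Aebp1, a matrix-associated protein (0.50), Nqo1, a quinone reductase (0.53), Calr4 (0.53), Phldb2 (0.53) and Fbln5, an elastic fibre protein (0.57). Aebp1 averaged 11.61 ± 0.13 in NF1 RNAi + U0126, 9.39 ± 0.28 in NF1 RNAi and 10.49 ± 0.64 in Control RNAi (SD, n = 3 each), the order of groups that Rgs4 had. For Rgs3 the distances ran from 0.13 for Mgst2, a microsomal glutathione transferase, through 0.14 for Smarca2, an ATPase of chromatin remodelling complexes, to 0.17 for Nrip2, Apeg3 and Stim1, the calcium sensor of the endoplasmic reticulum. Mgst2 averaged 10.69 ± 0.08 in NF1 RNAi + U0126, 10.28 ± 0.39 in NF1 RNAi and 9.22 ± 0.11 in Control RNAi (SD, n = 3 each). A gene that varied less over the arrays can come closer by this measure, so the distances are not compared between the 3 RGS genes.

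**Figure D5:**
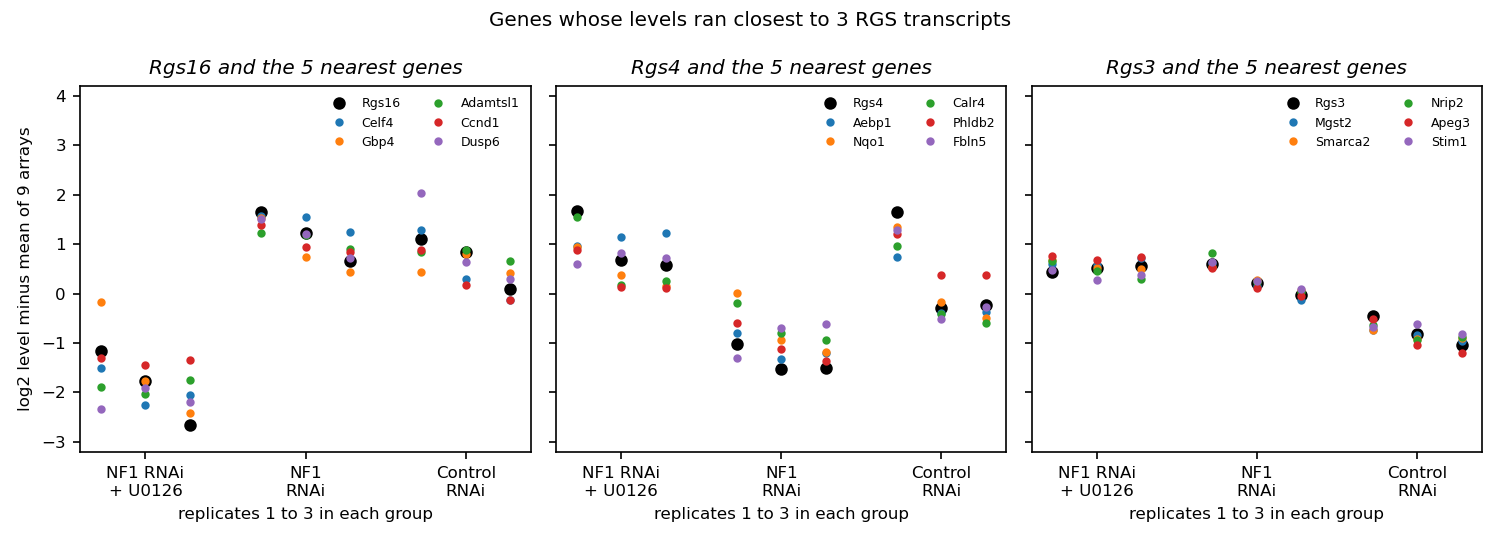
Log2 levels minus each gene's mean over 9 arrays for Rgs16, Rgs4 and Rgs3 (black) and the 5 genes closest to each (colours), with replicates 1 to 3 from left to right in each group. The Rgs16 panel is lowest in NF1 RNAi + U0126, the Rgs4 panel in NF1 RNAi and the Rgs3 panel in Control RNAi.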

How the data were processed

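Total RNA from 9 cultures was hybridised to Affymetrix rat arrays, 1 array per culture. The authors used RMA, per the submitters' processing notes, and deposited 1 linear intensity per probe set, from 5.62 to 25800.2. No source used here gives the software, its version or the build. Log2(intensity + 1) was taken, which understates changes of dim probe sets. After 57 control probe sets were left out, 20826 of 31042 probe sets named exactly 1 gene in the platform annotation (436 named several, 9780 none), with symbols updated through RefSeq (GRCr8). Each of the 14213 genes was read by its brightest probe set on average. No filter on low values was applied. Sequences are from RefSeq.

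Tests used limma 3.58.1 under R 4.3.3 (lmFit, eBayes, group means over 9 arrays, 6 residual degrees of freedom, two-sided, Benjamini-Hochberg over all genes), after checks on simulated data. The number of arrays limits the precision. The 8 RGS genes and the gene lists were chosen with earlier results of these data known. Named were all RGS genes, Nf1, Dusp6, Egr1, some of the markers (passing or not), up to 4 passing genes per list and comparison by size, and the 5 closest genes to 3 RGS genes. Marker lists covered Schwann cells, fibroblasts, macrophages, endothelial and mural cells, and neurons.

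The labels do not say what a replicate number marks. Deviations from group means correlated across genes in all 9 same-number pairs (r 0.17 to 0.62) and in 18 different-number pairs ran from -0.52 to 0.40. Deviations of a gene within a group sum to 0, so positive same-number values bring negative different-number ones with them. The 2 ranges are therefore not separate evidence of pairing. Replicates 2 and 3 were not always told apart. NF1 RNAi + U0126 replicate 2 had r of 0.40 with NF1 RNAi replicate 3 and 0.24 with replicate 2. NF1 RNAi replicate 2 had r of 0.29 with Control RNAi replicate 3 and 0.17 with replicate 2. Between NF1 RNAi + U0126 and Control RNAi, replicates 2 and 3 correlated more with their own number. The number was taken to pair arrays and is blocked as an alternative. Other alternatives were a filter on dim genes, median centring, quantile normalization, no pseudocount, only the groups compared, trended and robust eBayes, the mean of probe sets and each array left out.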

Additional observations from a re-analysis of the deposited data

How the results depend on the processing

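No difference of an RGS gene that passed changed sign under any alternative run. Of 432 RGS differences under an alternative, 3 moved by at least the SD between replicates, taken either as the larger of the 2 groups compared or as pooled over 3 groups, all with the mean of probe sets: Rgs12 to -0.12 against NF1 RNAi and -0.16 against Control RNAi, both with the inhibitor, and Rgs3 to 1.65 with the inhibitor against Control RNAi. These SDs include Control RNAi replicate 1, so moves without that array are read against a wide spread; the report gives those of Rgs4, Rgs2 and Rgs14. Rgs2 and Rgs12 each changed sign in 1 comparison that had not passed. In NF1 RNAi against Control RNAi 2 RGS genes passed (3734 of all genes), 4 with the replicate block (4547), 1 with only the groups compared (3236), 1 to 3 with single arrays left out (2790 to 3755) and 4 without all replicate 1 arrays (3827). In NF1 RNAi + U0126 against NF1 RNAi 2 passed (1951), 1 to 3 with single arrays left out (1110 to 2587) and 4 without all replicate 1 arrays (2621). Among the list and marker genes the block ended 1 call, that of Gnai1 given in the report. Beyond the calls it gained there, named genes that passed only with it were Htr2b (adjusted p = 0.00821), Grk5 (0.0227) and the neurofilament genes Nefm (0.0429) and Nefl (0.00254) with the inhibitor against Control RNAi, and Tubb3 (0.0459) with the inhibitor against NF1 RNAi. Of the G-protein signalling genes 15 passed with the inhibitor against NF1 RNAi, 9 to 19 with single arrays left out. The lowest count over all genes there, 1110, was without NF1 RNAi replicate 2. All probe sets in place of genes gave 6338 passing with NF1 RNAi and 8710 with NF1 RNAi + U0126, both against Control RNAi, where 3734 and 5047 genes passed, and 3113 with the inhibitor against NF1 RNAi, where 1951 genes passed; more features were tested. The fits on all probe sets and without replicate 1 arrays were chosen after seeing the data. The cause of the other moves was not tested. Leaving out 1 array leaves 2 in its group, and all groups share 1 estimate of the spread.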

Other observations

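Further signalling genes that passed are given here, and most of these calls were lost in some fits that left out 1 array. Gnb5, the G-beta subunit that pairs with RGS proteins of the R7 subfamily, rose by 0.28 ± 0.08 with NF1 RNAi against Control RNAi (limma adjusted p = 0.0267), a call that held in 3 of the 9 fits that left out 1 array. Gprc5b, an orphan receptor, rose by 1.46 ± 0.46 there (limma adjusted p = 0.0455) and by 0.80 without Control RNAi replicate 1, with levels of 9.98, 9.98 and 9.86 in NF1 RNAi + U0126, 9.03, 9.52 and 9.58 in NF1 RNAi, and 6.61, 8.42 and 8.72 in Control RNAi. That call held in 3 of the 9 fits. The NF1 RNAi + U0126 arrays lay above all others for Gprc5b. Its mean intensity was 983 ± 46 there and 287 ± 169 in Control RNAi (SD, n = 3 each). Gpr37l1 fell by 1.35 ± 0.23 with the inhibitor against Control RNAi (limma adjusted p = 0.00198), and its relative Gpr37 fell by 1.10 ± 0.25 with the inhibitor against NF1 RNAi (limma adjusted p = 0.0216), a call that held in 5 of the 9 fits.

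Markers were counted by the same threshold. Of all genes 26.3% passed it with NF1 RNAi against Control RNAi. The share was 13.7% with the inhibitor against NF1 RNAi and 35.5% with the inhibitor against Control RNAi. Of 7 Schwann cell markers 1 rose and 2 fell with NF1 RNAi against Control RNAi, 3 fell with the inhibitor against NF1 RNAi, and 1 rose and 3 fell with the inhibitor against Control RNAi. S100b rose by 0.79 ± 0.07 with NF1 RNAi against Control RNAi (limma adjusted p = 0.000136), and Pmp22, a myelin gene, fell by 1.96 ± 0.36 (limma adjusted p = 0.00407). In the same comparisons 1 fibroblast marker rose and 2 fell, then 1 rose, then 1 rose and 3 fell, among 10. Of 10 neuron markers 1 rose and 4 fell, then 3 rose and 1 fell, then 1 rose and 2 fell. Of 10 macrophage markers 1, 1 and 3 rose. Of 9 endothelial and mural markers 2 fell with NF1 RNAi against Control RNAi, 1 rose with the inhibitor against NF1 RNAi and none passed in limma with the inhibitor against Control RNAi, where 1 had an unadjusted p under 0.05.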
